A study of Mus musculus with 4 samples.

Results

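The endothelin system was followed in mouse hind limb muscle through 5 genes, chosen by symbol: the ligand genes Edn1 and Edn3, the converting enzyme gene Ece1 and the receptor genes Ednra and Ednrb. All 5 were found among the 32285 gene rows of the tables. The study sorted live cells of tibialis anterior and gastrocnemius muscle by GFP and counted their RNA with a 10x 3′ single-cell kit, which tags each captured molecule with a unique molecular identifier (UMI). There were 4 libraries from male mice aged 2 months, with 4 mice pooled for each genotype, and values over the 4 libraries are given below in the order WT GFP+, Sod1KO GFP+, WT GFP-, Sod1KO GFP-. All mice, WT included, carried the S100GFP reporter, whose GFP is under the S100B promoter and marks Schwann cells (SCs) along with other cells. Sod1KO mice lack the cytosolic superoxide dismutase and are used as a model of muscle that loses and regains its nerve contacts. Each group was 1 library, and both sorts of a genotype came from the same pooled mice, so no test between groups could be made. Every interval is a 95% interval that covers counting error only, not the spread between mice. Intervals on UMIs, unlike those on shares of cells, also leave out the spread between cells.

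Endothelins are small peptides cut from longer precursors, and Ece1 encodes an enzyme that makes the final cut. Endothelin receptor A (Ednra) of vascular smooth muscle is known for constriction and prefers endothelin 1 over endothelin 3, while receptor B (Ednrb) binds all endothelins alike and is best known in endothelium, glia and cells of the neural crest. Edn3 and Ednrb are together required for melanocytes of the skin and neurons of the gut.

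The coding sequences of the mature ligands are shown because their products are the pair that receptor A tells apart. In GENCODE vM39 the 63 bases, for 21 residues, lay in exon 2 of both genes, at chr13:42457125-42457187 in Edn1 and chr2:174603542-174603604 in Edn3 (GRCm39, plus strand). They are written 5′ to 3′, and capitals mark the 13 bases at which the genes differ.
Edn1: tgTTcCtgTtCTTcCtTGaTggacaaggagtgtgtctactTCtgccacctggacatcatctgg
Edn3: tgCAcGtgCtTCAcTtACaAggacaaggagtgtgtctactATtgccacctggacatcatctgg
The remaining 50 bases were the same (79.4%), and 6 of the 21 encoded residues differed. The whole genes span chr13:42446301-42461466 (Edn1, plus strand), chr2:174602088-174625835 (Edn3, plus), chr8:78386590-78451552 (Ednra, minus), chr14:104052053-104081900 (Ednrb, minus) and chr4:137589530-137692542 (Ece1, plus).

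After filtering, 17263 cells were kept, between 1638 (WT GFP-) and 5925 (Sod1KO GFP+) in a library, and the median depth of the deposited barcodes ran from 6152.5 UMIs in WT GFP- to 13825.5 in Sod1KO GFP-. Clustering without the endothelin genes gave 37 clusters. Of these, the clusters with clear markers formed 14 named classes, and all markers of 13 classes, and 6 of 7 of the venous one, were over 2-fold above the other cells. Unnamed clusters held 18.2%, 19.9%, 57.8% and 33.4% of the cells of the 4 libraries. Between 1 and 13 cell barcodes were shared by a pair of libraries. Levels are given as CPM, the UMIs of a gene for every 1000000 UMIs of the summed cells. Sod1 was 90.9, 98.2, 124 and 113 CPM, so its 3′ tags were not lower in GFP+ cells of the library labelled Sod1KO. Such tags can lie outside a deleted part and do not check the genotype, and groups are named here as their libraries are labelled.

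Edn1, the vasoconstrictor ligand, was led by arterial endothelial-like cells, at 221 CPM (210.1–233) over the 4 libraries. Venous endothelial-like cells followed at 93.5 CPM, Pi16 fibroblast-like cells (a fibroblast class named for its marker Pi16) at 47.7 and capillary endothelial-like cells at 12.4. In these pooled levels, intervals of neighbours did not overlap down to fibro-adipogenic-like cells at 6.33 CPM, and from there on they did. Venous endothelial-like and Pi16 fibroblast-like cells stood apart in Sod1KO GFP- (125 and 35.5 CPM), but their intervals overlapped in the GFP+ libraries of WT (76.8 and 56.0) and of Sod1KO (49.6 and 52.6), where the order turned. A single venous endothelial-like cell held 18 of the 33 Edn1 UMIs in WT GFP+, and another 18 of the 29 in Sod1KO GFP+. Each cell was also thinned to 2000 UMIs, so that shares of cells can be compared. After thinning, 28.8% of arterial endothelial-like cells held an Edn1 UMI (25.0–32.8, 538 cells, 7 shallower ones left out), against 2.36% of capillary endothelial-like cells (1.71–3.16, 3 left out) and 0.473% of macrophage-like cells (0.0573–1.70, 17 left out), set here as a class that should lack it. Before thinning they were 62.2%, 7.72% and 2.27%, with medians of 11047, 11335 and 14340.5 UMIs per cell.

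Arterial endothelial-like Edn1 was 199, 179, 187 and 245 CPM in the 4 libraries, from 60, 45, 146 and 294 cells. The GFP- library labelled Sod1KO was the highest. The log2 ratio of Sod1KO over WT was −0.15 in GFP+ (−0.51 to 0.20) and 0.39 in GFP- (0.20 to 0.59). The GFP- ratio was 0.05 (−0.16 to 0.27) under a stricter cell filter of over 500 genes and under 5% mitochondrial UMIs. Under that filter the cells were clustered and named anew, so a class can also hold other cells. In Pi16 fibroblast-like cells of the GFP+ sort Edn1 was 56.0 CPM in WT and 52.6 in Sod1KO, a ratio of −0.09 (−0.53 to 0.34).

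Edn3, the ligand of neural crest development, was held mainly by satellite-like cells, the muscle stem cells. They had 174 CPM (156–194) over 149 cells, 11.4 times the level of perineurial-like cells (15.2 CPM), the next class. Fibro-adipogenic-like cells had 5.68 CPM, and each other named class was under 1. Of all Edn3 UMIs 50.0% were in these 149 cells. They did not come from a few cells, as 114 of the 149 held at least 1 Edn3 UMI and the most in a single cell was 12. After thinning, 31.1% (23.7–39.2) of satellite-like cells held one, against 0 of 423 macrophage-like cells, which allows a share of up to 0.709%. Unthinned, it was 76.5% of satellite-like cells, with a median of 12109 UMIs, and 0 of 440 macrophage-like cells.

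Satellite-like Edn3 was 186, 166, 222 and 149 CPM in the 4 libraries, from 38, 58, 14 and 39 cells. Both Sod1KO values were below both WT values. The ratios were −0.16 in GFP+ (−0.57 to 0.25) and −0.58 in GFP- (−1.10 to −0.04), the latter −0.08 (−0.68 to 0.55) with the stricter cell filter. The 14 WT GFP- cells also held 1769 CPM of 8 endothelial markers summed and 2259 of 7 pericyte markers, none at 0 in these cells, against 98.7 to 165 and 58.0 to 282 in the other libraries; their part in the result was not tested. Perineurial-like cells, which sheathe nerve bundles, had 26.7 CPM of Edn3 in WT GFP+ (11 UMIs) against 10.4 in the Sod1KO counterpart (13 UMIs), a ratio of −1.35 (−2.63 to −0.05). Of the 11 UMIs, 5 were in a single cell.

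Ece1, the converting enzyme, stood highest in the endothelial classes. Lymphatic endothelial-like cells had 724 CPM (690.2–759), venous 509, arterial 440.3 and capillary 294, apart in the intervals of these pooled levels. Venous and arterial intervals overlapped in WT GFP+, in WT GFP- with its 4 venous cells, and in Sod1KO GFP- (458–549 and 429.8–472). They were apart in Sod1KO GFP+ (489–610.4 and 342–445). Fibro-adipogenic-like (103 CPM), pericyte-like (101) and Pi16 fibroblast-like cells (99.7) came next and did not differ beyond their intervals. No named class was at 0, the lowest being perineurial-like cells at 13.5 CPM. The class that led Edn1 had an Ece1 UMI in 92.7% of its cells, whereas satellite-like cells, which led Edn3, had 47.4 CPM of Ece1.

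Lymphatic endothelial-like Ece1 was 846, 806, 601 and 739 CPM, from 5, 8, 15 and 106 cells. The ratios were −0.07 in GFP+ (−0.64 to 0.53) and 0.30 in GFP- (0.09 to 0.52). Arterial endothelial-like Ece1 was 414, 391, 449 and 451 CPM, and the ratios were −0.08 (−0.33 to 0.16) and 0.01 (−0.12 to 0.14). In arterial endothelial-like cells the genotypes lay close together in both sorts. Capillary endothelial-like Ece1 was 326, 275, 340.1 and 277 CPM, lower in the library labelled Sod1KO in both sorts, with ratios of −0.24 (−0.41 to −0.08) and −0.30 (−0.38 to −0.22). Unnamed cluster 18, with 224 of its 253 cells from WT GFP-, shares the leading genes Gpihbp1, Timp4, Aplnr and Aqp1 with this class. It was not counted in the class and had 243 CPM of Ece1, and its part in the result was not tested.

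**Figure D1:**
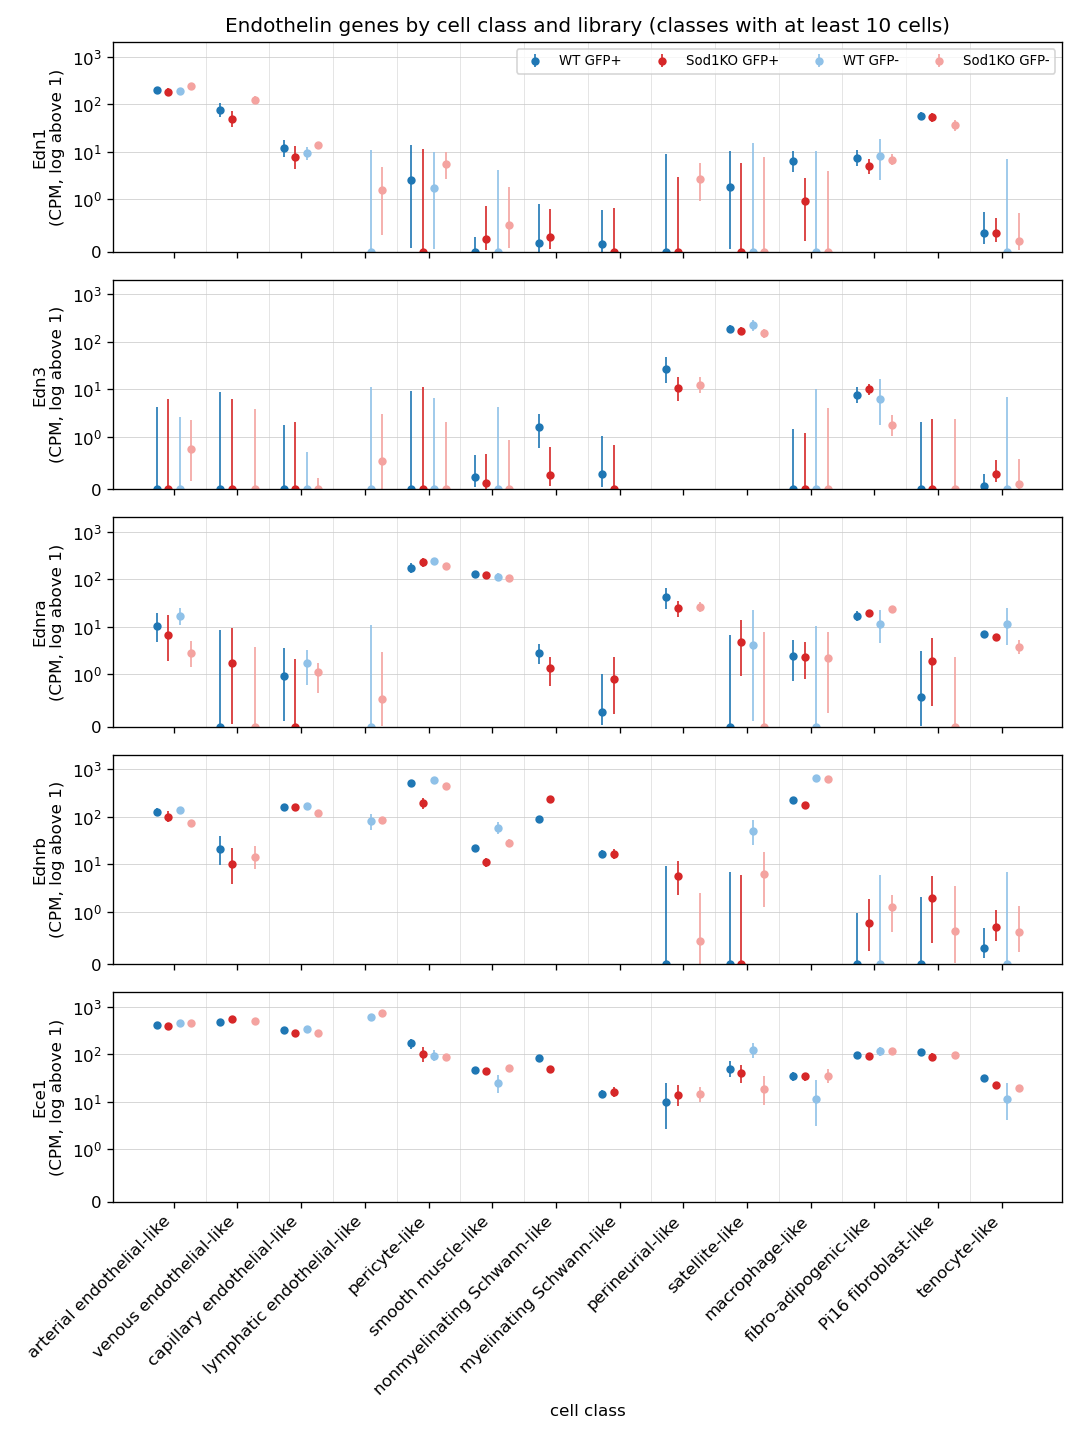
Level of the 5 genes in 14 cell classes (x axis) as CPM of summed UMIs (y axis, logarithmic above 1), 1 point for each library with at least 10 cells of the class, bars the 95% Poisson interval. Edn1 stands highest in arterial endothelial-like cells (179 to 245 CPM) and Edn3 in satellite-like cells (149 to 222), while Ednrb is spread over pericyte-like, endothelial-like, nonmyelinating Schwann-like and macrophage-like cells.

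Ednra, the constrictor receptor, was highest in the mural cells that wrap vessels. Pericyte-like cells had 199 CPM (184–215) and smooth muscle-like cells 123 (119–127). Perineurial-like (26.7) and fibro-adipogenic-like cells (20.5) followed with overlapping intervals, and endothelial classes had between 0.420 and 6.99 CPM. After thinning, 32.0% (27.0–37.3) of pericyte-like and 22.5% (20.3–24.9) of smooth muscle-like cells held an Ednra UMI, against 0.473% (0.0573–1.70) of macrophage-like cells; 18, 1 and 17 cells were too shallow to thin. At full depth they were 68.8%, 79.5% and 1.14%, with medians of 8420.0, 19122 and 14340.5 UMIs.

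Pericyte-like Ednra was 175, 226, 241 and 186 CPM in the 4 libraries. The order of the genotypes was opposite in the sorts, with ratios of 0.37 in GFP+ (−0.12 to 0.86) and −0.37 in GFP- (−0.66 to −0.08). The GFP+ ratio was 0.87 (0.23 to 1.53) with the stricter cell filter but −0.27 from means over cells. Smooth muscle-like Ednra was 131, 121, 112 and 105 CPM. The ratios there were −0.11 (−0.22 to 0.01) and −0.10 (−0.42 to 0.23), but under the stricter cell filter they turned to 0.25 (0.03 to 0.47) and 1.77 (1.11 to 2.46).

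Smooth muscle-like cells were made of 2 clusters that differed in their receptors. Cluster 3 (1163 cells, led by Pln and Myh11) held both, with Ednra at 83.2% of its Ednra and Ednrb UMIs. Cluster 23 (151 cells, led by the smooth muscle actin gene Actg2 and by Colec11) had 558 Ednra UMIs and 3 of Ednrb, or 99.5% Ednra (98.4–99.9). A 3′ kit counts a molecule once whatever its length, though capture can differ between genes. In GFP+ cells cluster 23 had 237 CPM of Ednra in WT and 243 in Sod1KO, a ratio of 0.04 (−0.23 to 0.31), and cluster 3 had 123 and 103, a ratio of −0.26 (−0.38 to −0.13). Cluster 23 was 8.85% (6.72–11.4) of smooth muscle-like cells in WT GFP+ but 16.7% (13.4–20.4) in the Sod1KO counterpart.

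Ednrb, the receptor for all endothelins, reached 451 CPM (428–475) in pericyte-like, 279 (267–292) in macrophage-like, 182 (175–188) in nonmyelinating Schwann-like and 135 (130.1–139) in capillary endothelial-like cells, with UMIs pooled over the libraries. This order turned within libraries. Macrophage-like cells stood above pericyte-like cells in WT GFP- (650.3 and 604 CPM, with overlapping intervals) and in Sod1KO GFP- (622 and 436). In Sod1KO GFP+ nonmyelinating Schwann-like cells were highest at 236 CPM (227–245). Their interval overlapped that of pericyte-like cells at 189.7 (145–243) but not that of macrophage-like cells at 174 (159–189). In WT GFP+ they stood at 87.3 CPM, below capillary (159) and arterial endothelial-like cells (124). Arterial (95.4) and lymphatic (84.0) endothelial-like cells did not differ beyond their intervals, nor did venous endothelial-like (14.3) and myelinating Schwann-like cells (16.3). Tenocyte-like cells were lowest at 0.561 CPM. After thinning, 42.6% of pericyte-like cells (37.2–48.1), 27.0% of macrophage-like (22.8–31.4), 23% of nonmyelinating Schwann-like (20.7–25.4) and 0.218% of tenocyte-like cells (0.0710–0.509) held an Ednrb UMI; 18, 17, 12 and 6 cells were too shallow to thin. At full depth they were 68.2%, 42.5%, 53.7% and 1.09%, with medians of 8420.0, 14340.5, 10247 and 24314 UMIs. Macrophage-like cells had been set as the class lacking Ednrb, and tenocyte-like cells took their place after the data were seen.

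Pericyte-like Ednrb was 516, 189.7, 604 and 436 CPM in the 4 libraries, from 41, 50, 52 and 206 cells. The GFP+ library labelled Sod1KO stood below the other 3. Its pericyte-like cells were also the shallowest, with medians of 8731, 5976, 11212 and 8461 UMIs in the 4 libraries and 2, 11, 2 and 3 cells under 2000 UMIs; the part of depth in the result was not tested. The ratio was −1.44 in GFP+ (−1.88 to −1.03) and −0.47 in GFP- (−0.65 to −0.28). The GFP+ ratio was −0.93 (−1.48 to −0.40) with the stricter cell filter and −0.63 with classes set per cell, both under 1 in size. In GFP+ cells 1 of 3 members with at least 20 UMIs was past a log2 ratio of 1 in size, where 11.3% of all genes tested were past it, and in GFP- cells 0 of 3, where 8.86% were.

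Summed endothelial markers moved with Ednrb in these pericyte-like cells. The 8 markers, none at 0, totalled 779, 257, 841 and 761 CPM in the 4 libraries, and their part in the result was not tested. The 7 pericyte markers of the GFP+ libraries summed to 18271 CPM (WT) and 17261 (Sod1KO).

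The balance of the receptors in GFP+ pericyte-like cells differed between the libraries. Ednra made up 25.4% (20.3–30.9), 54.4% (45.7–63.0), 28.5% (24.6–32.8) and 29.9% (27.3–32.7) of the UMIs of both receptors in the 4 libraries, so that 1 library stood apart. After thinning, 37 of 331 pericyte-like cells (11.2%, 7.99–15.1) held a UMI of both receptors. The product of the single shares, 13.6%, lay within that interval.

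**Figure D2:**
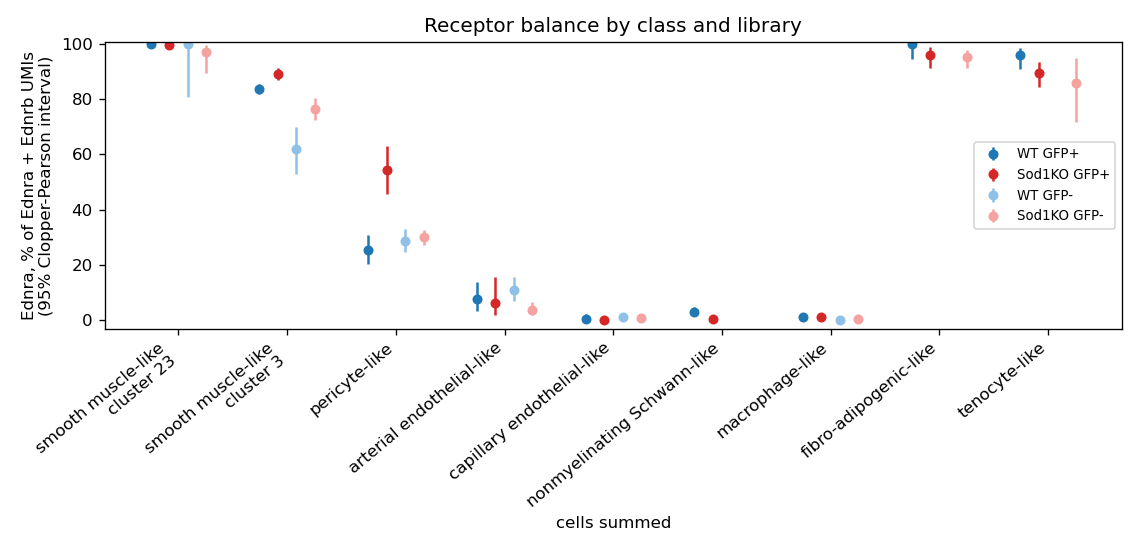
Ednra UMIs as a percentage of Ednra and Ednrb UMIs together (y axis) in the summed cells of a class or cluster (x axis), 1 point for each library with at least 10 of these UMIs, bars the 95% Clopper-Pearson interval. Smooth muscle-like cluster 23 lies near 100%, capillary endothelial-like, macrophage-like and nonmyelinating Schwann-like cells near 0, and among the pericyte-like points the GFP+ library labelled Sod1KO stands apart at 54.4%.

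Smooth muscle-like Ednrb was 22.3, 11, 57.6 and 27.8 CPM. Both sorts had the lower value in the library labelled Sod1KO, and both GFP- values were above both GFP+ values. Few cells made up these levels, since 12 of 610 WT GFP+ cells held 50% of that library's UMIs and 3 of 468 did so in the Sod1KO counterpart. The GFP- ratio of −1.05 (−1.54 to −0.54) turned to 0.88 (−0.26 to 2.01) with the stricter cell filter, and the GFP+ ratio of −1.01 (−1.37 to −0.67) was then −0.35 (−1.32 to 0.56).

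Arterial endothelial-like Ednrb was 124, 99.8, 137 and 73.2 CPM. The lowest value was in the GFP- library labelled Sod1KO, and the ratios were −0.32 in GFP+ (−0.80 to 0.15) and −0.90 in GFP- (−1.17 to −0.63). The GFP- ratio was −0.29 (−0.58 to 0.02) with the stricter cell filter and −1.47 from means over cells. The 7 pericyte markers in these cells, none at 0, summed to 776, 788, 2168 and 1179.6 CPM, and their part in the result was not tested. Capillary endothelial-like Ednrb was 159, 161, 164 and 119 CPM, with ratios of 0.02 (−0.21 to 0.25) and −0.46 (−0.57 to −0.34). Unnamed cluster 18, mostly WT GFP- cells and not counted in that class, had 124 CPM of Ednrb, and its part in the result was not tested.

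Nonmyelinating Schwann-like cells, the class that includes the terminal SCs of the neuromuscular junction, had 87.3 CPM of Ednrb in WT GFP+ (388 cells) against 236 in the Sod1KO counterpart (889 cells). The ratio was 1.43 (1.30 to 1.57). Of 3 members with at least 20 UMIs, 2 were past a log2 ratio of 1 in size here, where 12.1% of all genes tested were. The other was Ednra, at 2.75 and 1.37 CPM (17 and 15 UMIs), with a ratio of −1.0 (−2.11 to 0.09).

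The clusters of this class differed in Ednrb, and the libraries differed in the clusters. Cluster 7 (led by Btc, an EGF-family ligand) was 15.5% (12.0–19.5) of the class in WT GFP+ but 70.1% (66.9–73.1) in the Sod1KO counterpart, and 90.8% of its cells came from the latter library. Cluster 14 (led by Bche, butyrylcholinesterase) was 74.0% and 16.6%. Within cluster 7 Ednrb was 289 CPM (244–341) in WT and 305 (293–318) in Sod1KO, a ratio of 0.08 (−0.17 to 0.33). Within cluster 14 it was 71.9 and 48.2 CPM, a ratio of −0.58 (−0.89 to −0.27). The ratio of the class without cluster 7 was −0.32 (−0.59 to −0.06), opposite in sign to that of the whole class. Cluster 33, with 28 and 30 cells, gave 0.69 (−0.69 to 2.17), and cluster 30, of which 87.1% came from the Sod1KO library, had 0 Ednrb UMIs in 13 cells and 44 in 88.

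**Figure D3:**
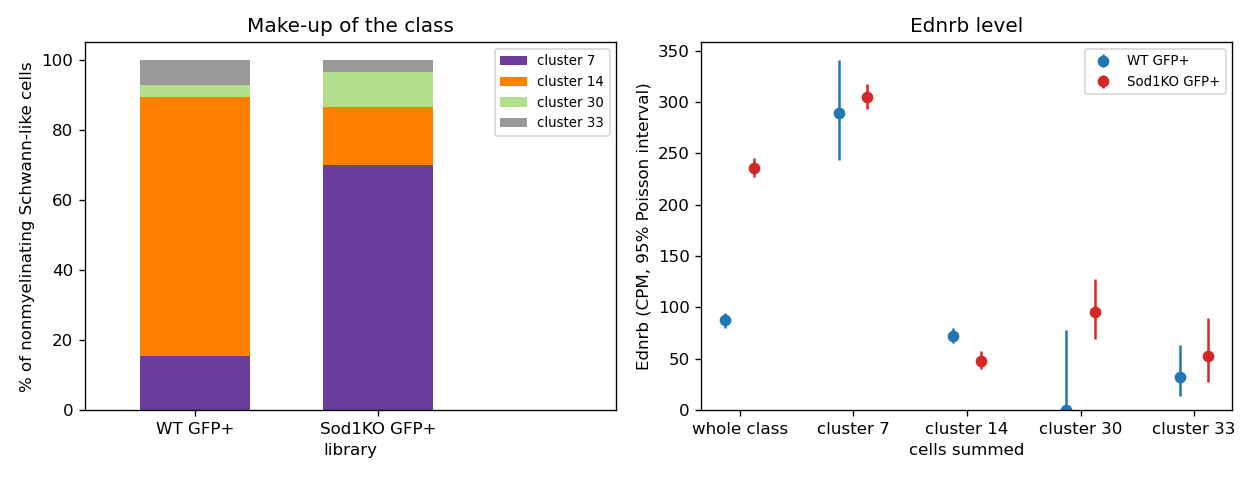
Left, the make-up of nonmyelinating Schwann-like cells by cluster (y axis, percent) in both GFP+ libraries (x axis); right, Ednrb in the whole class and in each cluster (y axis, CPM, bars the 95% Poisson interval). The whole class stands at 87.3 and 236 CPM, whereas the points of cluster 7 lie at 289 and 305, with cluster 7 at 15.5% of the class in WT and 70.1% in Sod1KO.

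After thinning, cells with an Ednrb UMI were 10.4% and 28.6% of the class in WT and Sod1KO, 28.3% and 36.8% of cluster 7, and 7.32% and 8.11% of cluster 14, where the shares did not follow the order of the CPM. Ece1 in the class was 84.2 and 49.2 CPM (−0.78, −0.95 to −0.60). It was 86.2 and 82.8 in cluster 14 (−0.06, −0.31 to 0.19) and 70.3 and 38.8 in cluster 7 (−0.86, −1.36 to −0.31). Myelinating Schwann-like cells, the myelin makers, had 16.2 CPM of Ednrb in WT GFP+ against 16.5 in the Sod1KO counterpart, with an interval of the log2 ratio from −0.41 to 0.46.

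Macrophage-like Ednrb was 228, 174, 650.3 and 622 CPM in the 4 libraries, from 133, 210, 21 and 76 cells. The sorts lay farther apart than the genotypes. The log2 ratio of GFP+ over GFP- was −1.51 (−1.73 to −1.29) in WT and −1.84 (−2.01 to −1.67) in Sod1KO, while that of Sod1KO over WT was −0.39 in GFP+ (−0.57 to −0.22) and −0.06 in GFP- (−0.28 to 0.16). Thinned shares of cells with an Ednrb UMI were 26.2%, 17.6%, 50.0% and 48.6%. Other lineages' markers stood higher in the sort with less Ednrb: 8 endothelial markers summed to 221, 216, 138 and 133 CPM, with 1 at 0 in WT GFP-, and 8 myelinating Schwann markers to 272, 233, 96.8 and 93.6, with 5 and 3 at 0 in the GFP- libraries.

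The 187 macrophage-like cells with an Ednrb UMI and the 253 without one are compared as a description only, since Ednrb chose them. Lyve1, a marker of perivascular macrophages and lymphatic endothelium, was 622 CPM with and 51.5 without. The scavenger receptor genes Cd163 (879 and 193 CPM) and Mrc1 (3178 and 1182) also stood higher with Ednrb, and the monocyte receptor gene Ccr2 (109.7 and 350.5) and the antigen presentation gene H2-Ab1 (1314 and 4079) stood lower. Among the other monocyte or dendritic markers, Plac8 (8.75 and 83.2) and Flt3 (0.625 and 17.8) stood lower too, but Cd209a (41.9 and 41.2) was level. Among general macrophage genes, Cd68 was 429 and 395 CPM, nearly level. The others of the marker list stood higher with Ednrb: Csf1r (1062 and 487), Adgre1 (488 and 298), C1qa (3302 and 1728) and C1qb (2803 and 1875). The median depths were 15503 and 12527 UMIs.

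**Figure D4:**
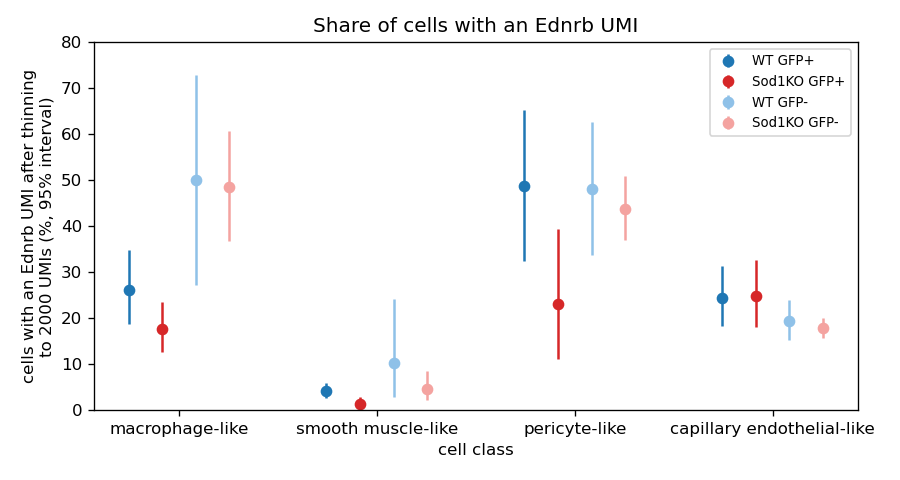
Share of cells with an Ednrb UMI after thinning to 2000 UMIs (y axis, percent, bars the 95% Clopper-Pearson interval) in 4 classes (x axis), 1 point for each library. Macrophage-like cells lie at 26.2% and 17.6% in the GFP+ and at 50.0% and 48.6% in the GFP- libraries, and pericyte-like cells of the GFP+ library labelled Sod1KO lie at 23.1%, below the other 3.

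**Figure D5:**
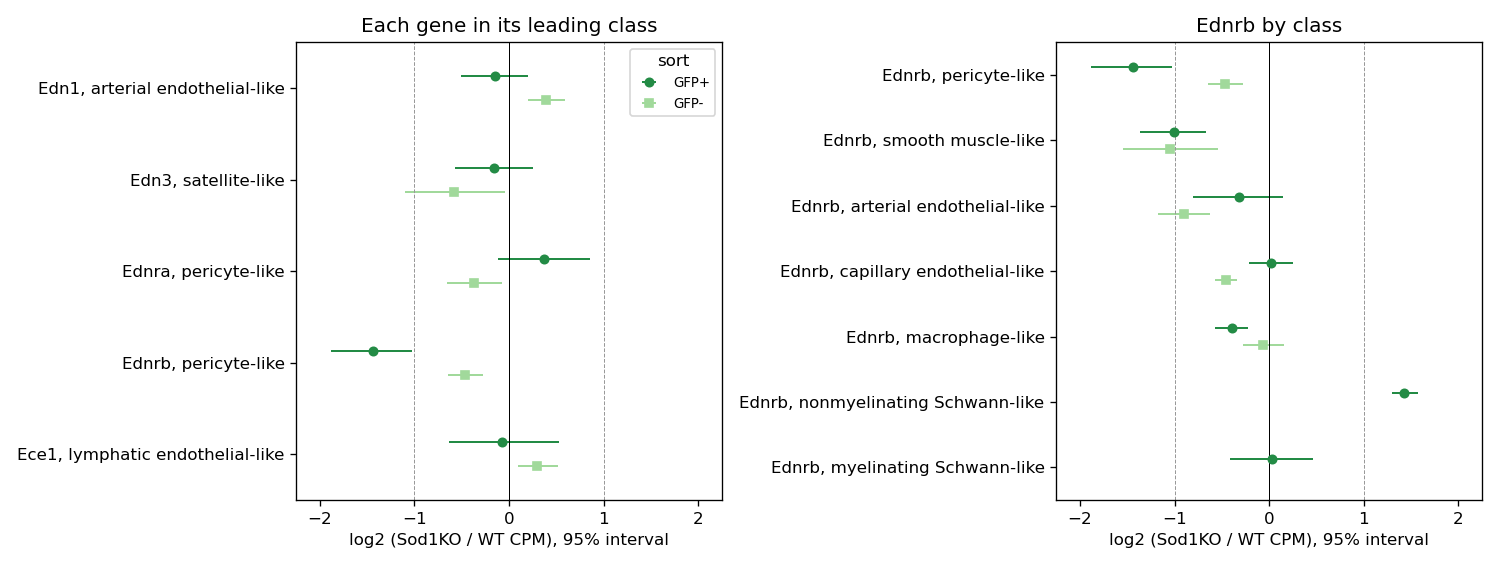
Log2 ratio of CPM, Sod1KO over WT (x axis, bars the 95% counting interval, dashed lines at 1 in size), for each gene in its leading class (left) and for Ednrb in 7 classes (right), by sort. Of the leading-class ratios, Ednrb in GFP+ pericyte-like cells (−1.44) is past 1 in size, and nonmyelinating Schwann-like Ednrb (1.43) lies on the other side.

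Over the 22 pairs of class and sort with at least 10 cells in both libraries, 61 ratios of the 5 genes rested on at least 20 UMIs. Of these 14 (23%) were past a log2 ratio of 1 in size, 5 upward and 9 downward. The share of all genes past it ran from 4.02% to 18.8% over the pairs. No member was past it in the endothelial pairs arterial GFP+ (7.13% of all genes), capillary GFP+ (4.80%), capillary GFP- (8.59%), venous GFP+ (5.93%) and lymphatic GFP- (15.3%). None was past it either in the GFP+ pairs of myelinating Schwann-like (4.02%), fibro-adipogenic-like (4.90%), Pi16 fibroblast-like (5.63%), macrophage-like (6.89%) and satellite-like cells (9.40%).

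In smooth muscle-like cells Ednrb was past it in GFP+ (5.44% of all genes), and Ednrb together with Ece1 in GFP- (8.96%), where Ece1 was 24.4 and 52.4 CPM (1.10, 0.47 to 1.81). Ednra was past it in GFP- arterial endothelial-like cells (8.99% of all genes), at 24 and 11 UMIs, and in GFP- tenocyte-like cells (16.6%), at 6 and 36 UMIs. Ednrb was past it in GFP+ tenocyte-like cells (4.74%), at 6 and 22 UMIs, a level at which that class serves as background. Edn3 was past it in GFP+ perineurial-like (10.8%) and, with Ednra, in GFP- fibro-adipogenic-like cells (13.0%), where the 4 WT UMIs of Edn3 were all in a single cell. Ece1 was past it in GFP- satellite-like cells (18.8%), at 30 and 9 UMIs, and in GFP- macrophage-like cells (11.7%), at 4 and 33 UMIs. A single cell held 12 of the 30 and another 17 of the 33.

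The other 41 genes of the pathway list run from the ligand Edn2 to the kinases and channels below the receptors. In GFP+ pericyte-like cells 30 had a ratio, with a median of −0.07 beside −0.05 over all genes tested. Of the 30, 4 were past the fold upward and 0 downward, where 11.3% of all genes tested were past it. The 4 were Rgs2 (17.5 and 104 CPM; 2.57, 1.37 to 3.99) and Rgs3 (1.03, −0.08 to 2.19), which switch off G proteins, the transcription factor gene Klf4 (85.1 and 236 CPM; 1.47, 0.87 to 2.10) and the channel gene Trpc6 (1.05, 0.43 to 1.69). In GFP+ nonmyelinating Schwann-like cells 36 had a ratio, with a median of −0.33 beside −0.03. Of the 36, 1 was past the fold upward and 7 downward, where 12.1% of all genes tested were past it. The kinase gene Prkg1 was the one upward (48.5 and 162 CPM; 1.74, 1.56 to 1.92).

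The 7 downward in that class included the phospholipase gene Plcb4 (59.0 and 21.2 CPM; −1.48, −1.72 to −1.23) and Nos3 of the endothelial nitric oxide synthase (5.50 and 0.823 CPM; −2.74, −3.99 to −1.65). Endothelial markers in the class summed to 259 CPM in WT and 119 in Sod1KO, and pericyte markers to 269.8 and 95.4, none at 0; their part in the result was not tested. In GFP- arterial endothelial-like cells 36 had a ratio, with a median of −0.14 beside −0.05, and Plcb1 was past the fold upward (424 and 879.8 CPM; 1.05, 0.93 to 1.18) and 7 others downward, among them Gucy1a1 of the nitric oxide receptor (82.5 and 18.0 CPM; −2.20, −2.64 to −1.76). Of all genes tested in GFP- arterial endothelial-like cells, 8.99% were past the fold. In GFP+ smooth muscle-like cells 35 had a ratio and none was past the fold, where 5.44% of all genes tested were. The ligand Edn2 had 21 UMIs in WT GFP+ myelinating Schwann-like cells, 20 of them in a single cell, against 2 in the Sod1KO counterpart.

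Among 21 other receptors of vasoactive ligands, 8 had a ratio in GFP+ pericyte-like cells, with a median of −0.18, and 1 was past the fold, the adrenergic receptor gene Adra1a (190.3 and 61.2 CPM; −1.64, −2.43 to −0.91). Over all genes tested in GFP+ pericyte-like cells the median was −0.05, and 11.3% were past the fold. In GFP+ smooth muscle-like cells 18 had a ratio, with a median of 0.15 beside 0.02 over all genes tested. Of the 18, 3 were past the fold upward and 2 downward, where 5.44% of all genes tested were past it. The 3 were Adra2a (8.95 and 23.4 CPM; 1.39, 1.05 to 1.73), the angiotensin receptor gene Agtr1b (11.6 and 26.7 CPM; 1.2 on the log2 scale) and P2ry6 (1.49 and 3.72 CPM; 1.32, 0.46 to 2.21).

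The genes most like each member in level were ranked by Pearson's r over 34 pairs of class and library, which share 14 classes, the libraries and their depth. For Edn1 they were Heg1 (0.873), Galnt15 (0.857) and Ly6a (0.854), and for Edn3 Msc (0.832), Hs6st2 (0.816) and Pcdh11x (0.80). Ednra was nearest to the noncoding RNA gene Carmn (0.911), Rasl12 (0.911) and Foxs1 (0.907). Ednrb was nearest to Tet3 (0.906), Atf6b (0.873) and Brpf1 (0.863), and Ece1 to Rassf9 (0.937), Eng (0.923), a co-receptor for TGF-beta in endothelium, and Enpp3 (0.902).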

How the data were processed

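The values are UMI counts per gene and barcode, which the authors deposited as filtered Cell Ranger matrices. Per the file headers the deposited counts come from Cell Ranger 7.1.0, and the submitters' processing notes name mm10; the study's methods name another version and other builds. Ambient RNA, poor cells and doublets were not yet removed from them. Barcodes with over 200 genes and under 10% mitochondrial UMIs were kept, and the cells most like simulated doublets were removed, at 0.8% for each 1000 barcodes. The 2000 most variable genes, without the endothelin genes, gave 30 principal components and Leiden clusters (leidenalg 0.10.2, resolution 1, Python 3.11.15). A cluster was named from marker lists where at least 3 markers were over 20 CPM and 2-fold above the other clusters and no other lineage rivalled it. UMIs were summed per library and class. Levels have exact Poisson, shares Clopper-Pearson and ratios conditional binomial intervals. A count of 0 was set to 3 UMIs, and no ratio was given where both counts were at or under 3. The fold was a log2 ratio of 1 in size on at least 20 UMIs. The ratio code was tested on simulated Poisson counts, which lack the spread between cells and so do not test the intervals for it. The members and lists were chosen with earlier results of these data known. Named were the members always and list genes past the fold, of which examples are printed. Alternatives were a stricter cell filter, no doublet removal, means over cells, median-of-ratios scaling, 5% ambient RNA subtracted, clusters held over 80% by 1 library left out, classes set per cell, and clustering with the endothelin genes. With the stricter filter, without doublet removal and with the endothelin genes, cells were clustered and named anew. Classes can then differ in their cells as well as in the filter. Positions and sequences come from GENCODE vM39 on GRCm39 by Ensembl identifier, not from the build of the counts.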

Additional observations from a re-analysis of the deposited data

Results flagged for a closer look

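Within 1 sort, ratios of the same receptor were past 1 in size in opposite directions in different classes; these differences were not tested, as each group is 1 library. In GFP+ cells Ednrb was −1.44 in pericyte-like and −1.01 in smooth muscle-like cells and 1.43 in nonmyelinating Schwann-like cells, where cluster 7 makes up 15.5% of the class in WT and 70.1% in Sod1KO. Both downward ratios were under 1 in size with the stricter cell filter (−0.93 and −0.35) and with classes set per cell (−0.63 and −0.12), as was that of smooth muscle-like cells without doublet removal (−0.26) and in cluster 3 alone (−0.93), and the upward one was −0.32 without cluster 7. In the GFP+ pericyte-like cells 8 endothelial markers summed to 779 CPM in WT and 257 in Sod1KO; their part in the result was not tested. In GFP- cells Ednra was −2.58 in arterial endothelial-like cells, on 24 and 11 UMIs, and 1.09 in fibro-adipogenic-like cells, on 7 and 212 UMIs. In the arterial cells 7 smooth muscle markers summed to 549.9 CPM in WT and 180.3 in Sod1KO, and in the fibro-adipogenic-like cells to 69.6 and 165; their part in the result was not tested.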

How the results depend on the processing

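No paired analysis was possible because each group is 1 library with no replicate, and for the same reason none could be left out. Of 25 ratios, 13 kept their sign under the 8 alternatives and 12 did not under at least 1, with 22 of 200 values of the other sign or at 0. With the clusters taken alone or left out there were 212 alternative values, of which 177 lay within the counting interval of the value reported; ratios past 1 in size with an interval off 0 changed sign in 5. Nonmyelinating Schwann-like Ednrb (1.43) was −0.53 without clusters held over 80% by 1 library, 1.29 with classes set per cell and, in alternatives chosen after seeing the data, −0.32 without cluster 7, 0.08 in cluster 7 and −0.58 in cluster 14. With the stricter cell filter Ednrb was −0.93 and −0.26 in GFP+ and GFP- pericyte-like cells and −0.35 and 0.88 in smooth muscle-like cells, Ednra was 0.87 in GFP+ pericyte-like cells and Edn1 0.05 in GFP- arterial endothelial-like cells. With classes set per cell these were, for Ednrb, −0.63 and −0.24 and then −0.12 and 0.12, and for Edn1 0.38 in GFP+ and −0.01 in GFP- arterial endothelial-like cells. Means over cells gave −0.56 and 0.62 for Edn1, −0.27 for Ednra in GFP+ pericyte-like and −1.48 for Ednrb in GFP+ smooth muscle-like cells. Without doublet removal smooth muscle-like Ednrb was −0.26 and −1.65. The cause was not tested, except that dropping clusters removes cells. Genes past the fold in GFP+ pericyte-like cells numbered 640 of at least 20 UMIs, 2345 with no minimum but the floor, and 62 of at least 100 UMIs; in GFP- they were 834, 1980 and 96, in GFP+ nonmyelinating Schwann-like cells 1654, 2907 and 756, and in GFP- arterial endothelial-like cells 961, 2131 and 187. Cell numbers were small in some classes: WT GFP- held 14 satellite-like, 15 lymphatic endothelial-like and 21 macrophage-like cells.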

Other observations

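Unnamed clusters held 52.4% of all Ednrb, 48.0% of Ednra and 41.7% of Edn1 UMIs. Cluster 12 (466 cells, a median of 21790.5 UMIs), led by Olfr78 and Pcsk1, had 119 CPM of Edn1, 322 of Ednrb and 312 of Ece1, and an Ednra UMI in 78.5% of its cells, so that ligand, enzyme and both receptors were counted in 1 cluster; Sema3g, St8sia6 and Alpl, which lead the arterial endothelial-like cluster, are also among its leading genes. Cluster 5 (935 cells, a median of 19853.0 UMIs), led by Abcc9 and other genes of pericytes, had 273 CPM of Ednrb and 96.0 of Ednra but 8.79 of Edn1. It had 214 CPM of Ece1, where pericyte-like cells had 101 at a median of 8420.0 UMIs. Whether some barcodes of clusters 5 and 12 held more than 1 cell was not tested. In cluster 8 (637 cells), which shares the leading genes Cldn1, Tenm2, Krt19 and Klf5 with perineurial-like cells, Ednrb was 19.5 CPM (16.1–23.4, 117 UMIs) in WT GFP+ against 122 (115–130.4, 931 UMIs) in the Sod1KO counterpart, while Edn3 was 11.5 (8.95–14.6) against 4.07 (2.77–5.78). The named perineurial-like class had only 1.96 CPM of Ednrb (8 UMIs) over the 4 libraries. Whether some barcodes of cluster 8 held more than 1 cell, or RNA of other lineages, was not tested.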
